A study of Rattus norvegicus with 4 samples.

Results

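The hippocampus of male rat pups exposed to bisphenol A (BPA) before birth was compared with that of male pups of vehicle-treated dams, as 1 sequenced RNA pool of each. Genes were kept when they had an NCBI gene ID in both male files and a mean of at least 1 FPKM (fragments per kilobase of gene model, relative to the size of the library) over the male pools, which left 10842 of the 13546 male rows with a gene ID and of 13984 in the whole series. The male control pool held 3 hippocampi of male Wistar pups on postnatal day 1 whose dams, given as 10 weeks old, received vehicle daily from gestation day 1 until parturition, and the male BPA pool held 3 hippocampi of male pups whose dams received BPA at 5000 µg/kg body weight daily over the same period. Pools of control and BPA females were made in the same way, with 3 hippocampi each. With 1 library per group there is no replicate, so every difference between the male pools is a difference between these libraries, and no p-value is given. The values just inside the limit were those of Vegfc, Capn12 and Tmie, with a mean of 1 FPKM, and just outside lay LOC499240, Pkib and Zfhx4, with a mean of 0.995 FPKM.

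BPA is a plastics monomer that binds estrogen receptors weakly and is studied as an endocrine disruptor. At birth the rat hippocampus contains young pyramidal neurons, a dentate gyrus in which granule neurons are still being produced, radial glia that turn into astrocytes, and few mature oligodendrocytes. The choroid plexus, the meninges and blood vessels adjoin or pass through it, so that a dissected hippocampus can carry RNA of all of them. In bulk RNA, fewer cells of a type and less RNA per cell cannot be told apart.

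Low FPKM values fell on steps of whole fragments, which put each male library at about 8800000 fragments, with 8720000 and 8760000 for the female control and female BPA libraries. At that depth 1 FPKM of a 1 kb transcript stands for 8.23 fragments in the male control and 8.18 in the male BPA library. Hippocampal neuron genes were plentiful in both male pools. Neurod6, a transcription factor of young pyramidal neurons, was at 135 FPKM in male control and 138 FPKM in male BPA, and the vesicular glutamate transporter Slc17a7 was at 138 and 114 FPKM.

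The male pools differed little in most genes. The median difference on the log2(FPKM + 1) scale, male BPA minus male control, was -0.004, with quartiles of -0.12 and 0.11. In all, 5268 genes (48.6%) were higher and 5524 (51%) lower in male BPA. A difference past 1 was seen for 31 genes (0.286% of the genes), 14 higher (0.129%) and 17 lower (0.157%) in male BPA, and a difference past 0.5 for 375 genes (3.46%), 146 higher (1.35%) and 229 lower (2.11%). A 95% interval of the ratio of the FPKM values, made from the recovered fragments by the exact Clopper-Pearson method and covering counting error only, lay on one side of 1 for 2700 genes (24.9%), above it for 1372 (12.7%) and below it for 1328 (12.2%).

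The spread was wider for each of the other pairings of pools. In female BPA against female control 669 genes were past 0.5 (6.15%), in male control against female control 643 (5.88%), and in male BPA against female BPA 499 (4.62%). The SD of the difference over genes was 0.224 for the male BPA and male control pools, and 0.275, 0.292 and 0.267 for those 3 pairings. These comparisons share libraries, and their spreads were not tested against each other.

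**Figure D1:**
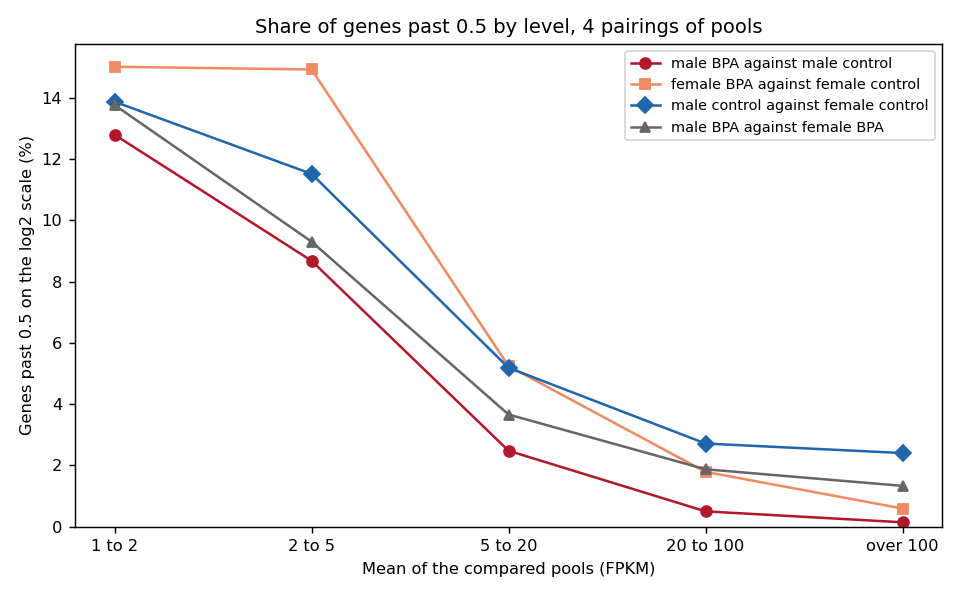
Percentage of genes with a difference past 0.5 on the log2(FPKM + 1) scale (y axis) in 5 classes of mean FPKM (x axis), with a line for each of 4 pairings of pools. For male BPA against male control the share goes from 12.8% of genes at 1 to 2 FPKM to 0.147% of genes over 100 FPKM, and this line is the lowest of the 4 in every class.

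Low abundance and short models marked the genes with large differences. Of the 31 genes past 1, 25 had a mean under 5 FPKM and 4 a mean of at least 20 FPKM, and their median model length was 945 bases against 2550 bases for all genes. The interval of the ratio excluded 1 for 29 of them. Among the 4059 genes with a mean of at least 20 FPKM, 18 were past 0.5, with 9 higher and 9 lower in male BPA.

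**Figure D2:**
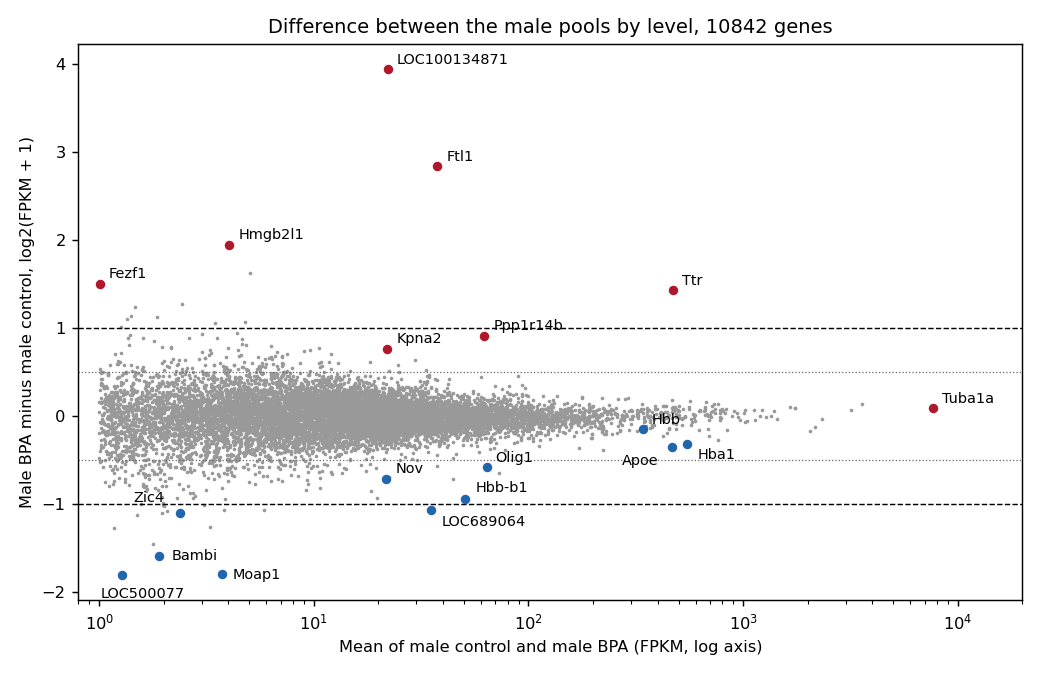
Difference between male BPA and male control on the log2(FPKM + 1) scale (y axis) against the mean FPKM of the male pools (x axis, log scale), with a dot for each of the 10842 genes, named dots coloured red where higher and blue where lower in male BPA, and lines at 0.5 and 1 in either direction. The scatter narrows with level, and LOC100134871 (3.94), Ftl1 (2.83) and Ttr (1.42) stand above it while LOC689064 (-1.07) and Hbb-b1 (-0.95) stand below it.

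Beta globin genes held both the largest higher value and the largest lower values among well measured genes. The promoters of 3 beta globin genes and of Hbb, a further beta globin row, are shown. They lie before the gene start, so their likeness does not show how fragments are divided among the rows. Each is the 250 bases before the gene start from RefSeq (assembly GRCr8, minus strand), read 5′ to 3′, with capitals for CCAAT and ATAAA on either strand, so that ATTGG is also in capitals. LOC100134871 (RefSeq symbol Hbbl1) lies at chr1:167650236-167650485, Hbb-b1 at chr1:167643521-167643770, LOC689064 (Hbb-bs) at chr1:167631631-167631880 and Hbb at chr1:167663722-167663971.
LOC100134871: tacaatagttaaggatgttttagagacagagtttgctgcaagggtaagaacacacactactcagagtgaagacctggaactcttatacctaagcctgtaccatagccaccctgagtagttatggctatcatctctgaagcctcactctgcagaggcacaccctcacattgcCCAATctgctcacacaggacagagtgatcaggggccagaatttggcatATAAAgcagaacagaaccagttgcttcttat
Hbb-b1: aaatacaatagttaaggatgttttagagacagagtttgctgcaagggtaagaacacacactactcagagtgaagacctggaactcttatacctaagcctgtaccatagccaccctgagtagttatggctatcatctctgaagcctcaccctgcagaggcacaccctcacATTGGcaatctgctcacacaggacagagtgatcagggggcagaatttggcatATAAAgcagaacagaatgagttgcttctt
LOC689064: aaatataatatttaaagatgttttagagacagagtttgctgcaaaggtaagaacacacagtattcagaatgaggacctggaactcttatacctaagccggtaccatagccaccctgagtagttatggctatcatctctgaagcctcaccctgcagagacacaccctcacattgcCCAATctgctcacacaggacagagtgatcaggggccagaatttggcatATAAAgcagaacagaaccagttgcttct
Hbb: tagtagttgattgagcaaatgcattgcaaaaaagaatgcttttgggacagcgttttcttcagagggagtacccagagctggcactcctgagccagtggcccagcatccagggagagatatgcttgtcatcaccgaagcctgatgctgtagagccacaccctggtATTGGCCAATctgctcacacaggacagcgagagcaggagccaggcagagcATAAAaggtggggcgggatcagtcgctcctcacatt
The LOC100134871 promoter was identical to that of Hbb-b1 at 98% of aligned bases and to that of LOC689064 at 95.5%, while Hbb matched the others at 76.1% to 77.5%. CCAAT is found in 34% and ATAAA in 39.3% of the 33469 RefSeq promoters of this length, so either match alone sets nothing apart.

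LOC100134871, a hemoglobin beta gene, was at 1.83 FPKM in male control and 42.3 FPKM in male BPA, a ratio of 23.1 (interval 11.9 to 51.2) and a difference of 3.94. In the female pools it was at 17.2 and 55.9 FPKM, again higher with BPA. Its neighbours went the other way in both sexes. Hbb-b1 was at 66.8 FPKM in male control and 34.1 in male BPA (difference -0.95), and at 52.6 and 35.9 in the female pools, control first here and throughout. LOC689064 was at 47.8 and 22.3 FPKM in the male pools (-1.07) and at 42.7 and 21.7 in the female pools. Summed over these 3 rows, which leaves out Hbb, the value was 116 FPKM in male control and 98.7 FPKM in male BPA, a difference of -0.24. Close copies can share reads, and how alike these 3 genes are in RNA was not compared, so the split among them is uncertain. The more abundant globins differed less, with Hba1 at 610.3 and 487 FPKM and Hbb at 359 and 322 FPKM. The red blood cell list, 10 measured genes of hemoglobin and heme synthesis, had a median difference of -0.15, with 3 higher and 7 lower in male BPA.

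Ferritin and a few short or multi-copy rows followed. Ftl1, the ferritin light chain that stores iron, was at 8.5 FPKM in male control and 66.7 FPKM in male BPA (2.83), and at 30.8 and 42.7 FPKM in the female pools. Adding the authors' new gene models with the same protein match to its row gave a difference of -0.087, so the Ftl1 value holds for that row alone. Hmgb2l1 was at 1.08 and 7 FPKM in the male pools (1.94) against 23.9 and 16.1 FPKM in the female pools. Rn7sl1, an RNA of the signal recognition particle, was at 1.97 and 8.1 FPKM (1.62). The ribosomal protein row Rpl17 was at 0.47 and 2.46 FPKM (1.23). Rows of such families can share reads with close copies elsewhere in the genome, and their values are uncertain in the same way as those of the beta globins.

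Further genes with large differences were mostly at low levels. Fezf1, a forebrain and olfactory factor, was at 0.05 FPKM in male control and 1.97 FPKM in male BPA (1.5), and the female files have no row for it. Snai1, a repressor of epithelial genes, was at 0.8 and 2.9 FPKM (1.12, with 1.48 and 1.83 in the female pools). Zic4, a zinc finger factor of the midline and cerebellum, was at 3.63 and 1.15 FPKM (-1.11, with 2.61 and 2.02 in the female pools), and Zic1 was at 21.9 and 14.6 FPKM (-0.55, with 12.9 and 11.0 in the female pools). LOC100365008 was at 1.01 and 3.84 FPKM (1.27) and RGD1562890 at 0.51 and 2.31 FPKM (1.13), the latter with an interval of the ratio that includes 1 (0.942 to 43.3).

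Other genes with large differences at low levels were lower in male BPA. Moap1, which promotes apoptosis through Bax, was at 6.37 FPKM in male control and 1.12 FPKM in male BPA (-1.80), against 6.52 and 6.31 FPKM in the female pools, so that male BPA stood below the other 3 pools, which were close together. Bambi, a decoy receptor that damps BMP and TGF-beta signals, was at 3.35 and 0.44 FPKM (-1.59, with 1.48 and 1.47 in the female pools). Ctla2a, a cysteine protease inhibitor, was at 3.08 and 0.48 FPKM (-1.46, with 2.41 and 2.33 in the female pools). LOC500077 was at 2.54 FPKM in male control and listed at 0.01 FPKM, the lowest value of the files, in male BPA (-1.81), with 0.01 and 0.83 FPKM in the female pools. Tincr (2.07 and 0.27 FPKM, -1.27), Ptges3l1 (5.04 and 1.52 FPKM, -1.26), RGD1565611 (2.43 and 0.57 FPKM, -1.13) and Ifi35, an interferon-induced gene (3.06 and 0.88 FPKM, -1.11), were also lower in male BPA.

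Among genes with a mean of at least 20 FPKM, the remaining large differences were below 1, apart from that of Ttr (1.42), which is described below. Ppp1r14b, a phosphatase inhibitor, was at 43 FPKM in male control and 81.5 FPKM in male BPA (0.91), while both female pools were higher still (167 and 148 FPKM). Kpna2, a nuclear import receptor abundant in dividing cells, was at 16.1 and 27.9 FPKM in the male pools (0.76) and at 17.5 and 6.63 FPKM in the female pools, and its difference became -0.085 when new gene models of the same protein were added. Efnb2, a membrane ligand of Eph receptors, was at 22.9 and 36.1 FPKM (0.64, with 29.7 and 32.2 in the female pools). The splicing regulators Clk1 (19.6 and 29.7 FPKM, 0.57) and Luc7l3 (27.3 and 39.4 FPKM, 0.51) were higher in male BPA, and in both genes male control was the lowest of the 4 pools. S100a10, a partner of annexin A2 found in vessels and some neurons, was at 55.8 and 33.6 FPKM (-0.72, with 77.6 and 66.4 in the female pools), and Lxn, a carboxypeptidase inhibitor, at 45.0 and 30.03 FPKM (-0.57, with 35.6 and 33.6 in the female pools). The ribosomal rows Rpl39 (88.9 and 56.3 FPKM, -0.65) and Rpl36a (27.8 and 16.8 FPKM, -0.69) were lower, and Rpl36a turned to 0.12 with new gene models added.

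Genes of the choroid plexus, the tissue that secretes cerebrospinal fluid, had the highest median of the 14 cell type lists. Of 15 measured genes 14 were higher in male BPA and 1 lower, where 48.6% of all genes were higher and 51% lower. Past 0.5 were 4, all higher, beside 1.35% of all genes. The list's median difference was 0.27. Ttr, the carrier of thyroid hormone that choroid plexus makes in bulk, was at 256 FPKM in male control and 689.5 FPKM in male BPA (1.42), whereas the female pools were at 3.96 FPKM with vehicle and 42.4 FPKM with BPA. For Ttr both male pools were above both female pools, and the BPA pool was above the control pool in each sex. The list as a whole went the other way in females, with 7 of 9 measured genes lower in female BPA and a median of -0.24. The water channel Aqp1 was at 1.54 and 3.7 FPKM in the male pools (0.89, with a ratio of 2.4, interval 1.58 to 3.64) and at 0.54 and 0.27 FPKM in the female pools. Clic6 (1.34 and 2.99 FPKM) and Sostdc1 (1.64 and 3.08 FPKM), named after their values were seen, were the others past 0.5.

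The genes of this list under 1 FPKM lay on the same side. All 9 of them had a higher FPKM in male BPA than in male control, among them the tight junction gene Cldn2 (0.15 and 1.17 FPKM), Tmem72 (0.41 and 1.16 FPKM) and Kl (0.49 and 1.11 FPKM), all named after their values were seen. In contrast, Slc29a4, which neurons also express, was at 72.6 and 73.6 FPKM, and Enpp2 at 10.9 and 11.1 FPKM. The summed FPKM of the list went from 377 in male control to 826 in male BPA, and without Ttr from 120 to 137. In the female pools the sum was 130 in control and 139 in BPA, and 127 and 97.0 without Ttr. How much choroid plexus each dissection held was not tested.

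**Figure D3:**
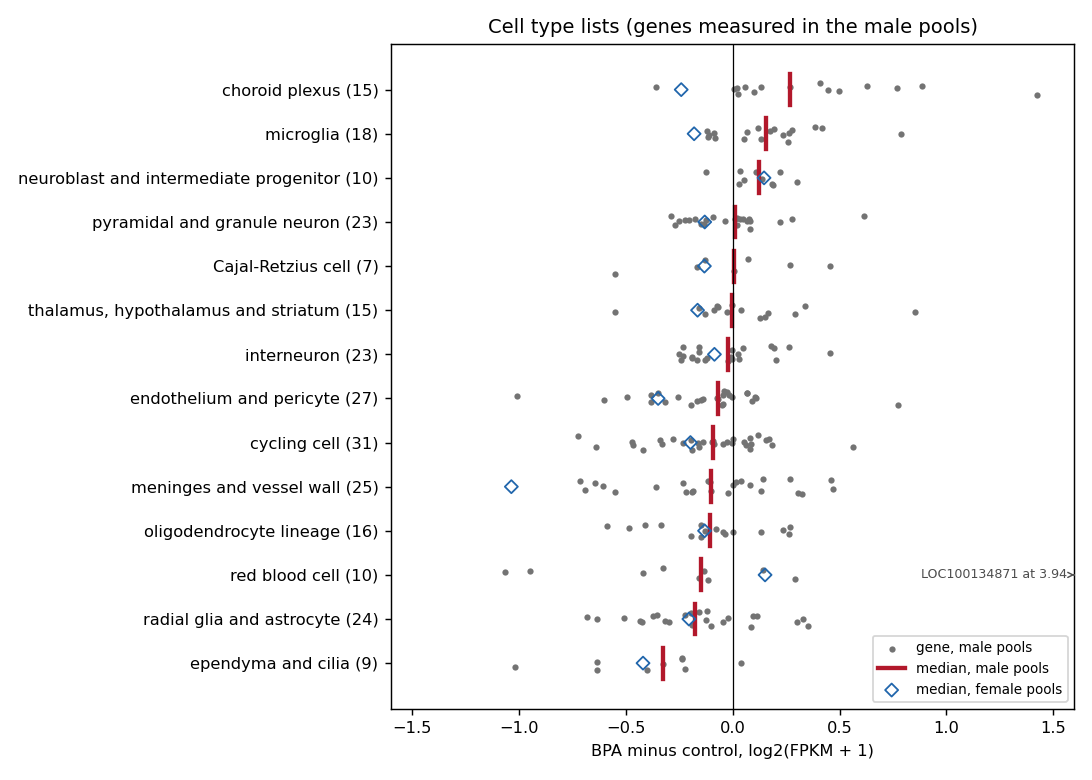
Differences between BPA and control on the log2(FPKM + 1) scale (x axis) for 14 lists of cell type genes, with the number of genes measured in the male pools in parentheses. Grey dots are single genes in the male pools, red bars their medians and blue diamonds the medians of the female pools, and LOC100134871 lies off the scale at 3.94. Choroid plexus has the highest male median (0.27) and ependyma and cilia the lowest (-0.32), and the male medians of neuron lists lie near 0.

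Genes of ependymal cells, which line the ventricles with motile cilia, were mostly lower in male BPA. The median of 9 genes was -0.32, with 1 higher, 8 lower and 3 lower by more than 0.5, where 2.11% of all genes were. Mia, a further gene of the list that was named after its values were seen, had a mean under 1 FPKM and was higher in male BPA, at 0.43 and 1.54 FPKM. Foxj1, the master factor of motile cilia, was at 19.7 FPKM in male control and 14.7 FPKM in male BPA (-0.40), the dynein light chain Dynlrb2 at 11.7 and 7.15 FPKM (-0.64), and Tmem212 at 2.99 and 0.97 FPKM (-1.02). In the female pools the median was also lower (-0.42), while Foxj1 itself was at 9.31 FPKM in control and 11.5 FPKM in BPA.

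Radial glia and astrocytes showed the same direction across a larger list. Of 24 measured genes 18 were lower and 6 higher in male BPA, where 51% and 48.6% of all genes were. The list's median was -0.18, and the summed FPKM was 2544 in male control and 2233 in male BPA. Apoe, the lipid carrier of astrocytes, was at 523 and 409 FPKM (-0.35, with 424 and 321 in the female pools). Fabp7, the fatty acid binding protein of radial glia, was at 884 and 792 FPKM (-0.16), and the intermediate filament Vim at 213 and 196 FPKM (-0.12). Hes5, the Notch target that keeps progenitors undifferentiated, was at 10.6 and 6.26 FPKM (-0.68, with 6.33 and 3.92 in the female pools), and S100b at 21.4 and 13.5 FPKM (-0.63, with 18.5 and 15.8 in the female pools). The water channel Aqp4, named after its values were seen, was at 35.8 and 24.9 FPKM (-0.51). For 14 of the 24 genes the counting interval of the ratio lay below 1, and for 3 above it, where 12.2% and 12.7% of all genes did. In the female pools 21 of 24 were lower with BPA, where 57.2% of all genes were, with a median of -0.21.

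Oligodendrocyte lineage genes had a median of -0.10, with 11 of 16 lower, where 51% of all genes were. Olig1, a factor of oligodendrocyte precursors, was at 76.9 FPKM in male control and 50.8 FPKM in male BPA (-0.59, with a ratio of control to BPA of 1.51, interval 1.39 to 1.65), and at 52.5 and 39.8 FPKM in the female pools. Male control was therefore the highest of the 4 pools, and male BPA lay between the female ones. Sirt2 (61.5 and 58.2 FPKM) and the myelin enzyme Cnp (28.4 and 24.7 FPKM) differed by -0.08 and -0.19.

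Neuron lists stayed near 0 in the male pools. Pyramidal and granule neuron genes had a median of 0.01, with 12 of 23 higher, and Cajal-Retzius genes of 0.01. Interneuron genes had a median of -0.02, with 8 of 23 higher and none past 0.5. The shares of all genes were 48.6% higher and 3.46% past 0.5. Camk2a, the calcium kinase of excitatory synapses, was at 132 and 115 FPKM (-0.20). Reln, secreted by Cajal-Retzius cells and interneurons, was at 75.5 and 104 FPKM (0.46, with a ratio of 1.38, interval 1.34 to 1.42), with 76.5 and 79.0 FPKM in the female pools, so that male BPA was above the other pools. Cck, a peptide of interneurons, was at 176 and 149 FPKM (-0.24, with 108 and 134 in the female pools), and Cnr1, the cannabinoid receptor of Cck cells, at 77.7 and 76.4 FPKM.

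Young neuron genes were slightly higher. Of 10 neuroblast and intermediate progenitor genes 9 were higher in male BPA, where 48.6% of all genes were, with a median of 0.12. None was past 0.5, which says little for so short a list, since 3.46% of all genes were. Dcx, a microtubule protein of migrating neurons, was at 244 and 278 FPKM (0.19, with 289 and 330 in the female pools), Tubb3 at 1364 and 1412 FPKM (0.05) and Nhlh2 at 8.43 and 10.6 FPKM (0.30). The cycling cell list leaned down, with a median of -0.09 and 20 of 31 lower, where 51% of all genes were. Cdk1, the mitotic kinase, was at 13 and 8.01 FPKM (-0.64) and Ube2c, which marks cyclins for destruction, at 8.77 and 4.92 FPKM (-0.72), while Birc5, a spindle and survival protein, was at 4.46 and 7.07 FPKM (0.56). In the female pools Cdk1 was at 9.45 and 10.2 FPKM, which lies between the male values.

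Microglia genes were slightly higher in male BPA, with a median of 0.15 and 13 of 18 above male control, where 48.6% of all genes were. Aif1, the actin-binding protein known as Iba1, was at 4.39 FPKM in male control and 8.31 FPKM in male BPA (0.79, with a ratio of 1.89, interval 1.13 to 3.24), and male control was the lowest of the 4 pools, with 9.03 and 9.57 FPKM in the female ones. The complement genes C1qa (9.9 and 12.2 FPKM) and C1qb (8.97 and 10.9 FPKM) differed by 0.28 and 0.26, each with an interval of the ratio that includes 1. The female median was -0.18, on the other side of 0.

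Vessel and meningeal genes were mixed. Endothelial and pericyte genes had a median of -0.07, with 21 of 27 lower, where 51% of all genes were. The smooth muscle genes Tagln (4.46 and 1.71 FPKM, -1.01, with 7.12 and 3.43 in the female pools) and Myl9 (10.0 and 6.25 FPKM, -0.60, with 11.5 and 8.85 in the female pools) were lower with BPA in each sex, whereas Kcnj8, a pericyte potassium channel, was at 2.69 and 5.31 FPKM (0.77, with 3.5 and 2.94 in the female pools). The endothelial tight junction gene Cldn5 was at 65.8 and 63.5 FPKM (-0.05). Meningeal and vessel wall genes had a median of -0.10, with 14 of 25 lower and 5 past 0.5, all lower, beside 51% and 2.11% of all genes. Nov, a matricellular protein, was at 27.3 and 16.2 FPKM (-0.72, with 24.9 and 11.9 in the female pools), Col1a1 at 16.7 and 10.3 FPKM (-0.65, with 28.3 and 10.8 in the female pools), and Col3a1 at 17.3 and 11.0 FPKM (-0.61, with 30.1 and 12.9 in the female pools). Ptgds, a prostaglandin enzyme of the leptomeninges, was at 28.9 and 40.2 FPKM in the male pools and 209 and 18.1 FPKM in the female pools. The female median of this list was -1.04, and male control minus female control gave -0.86 for the same genes.

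**Figure D4:**
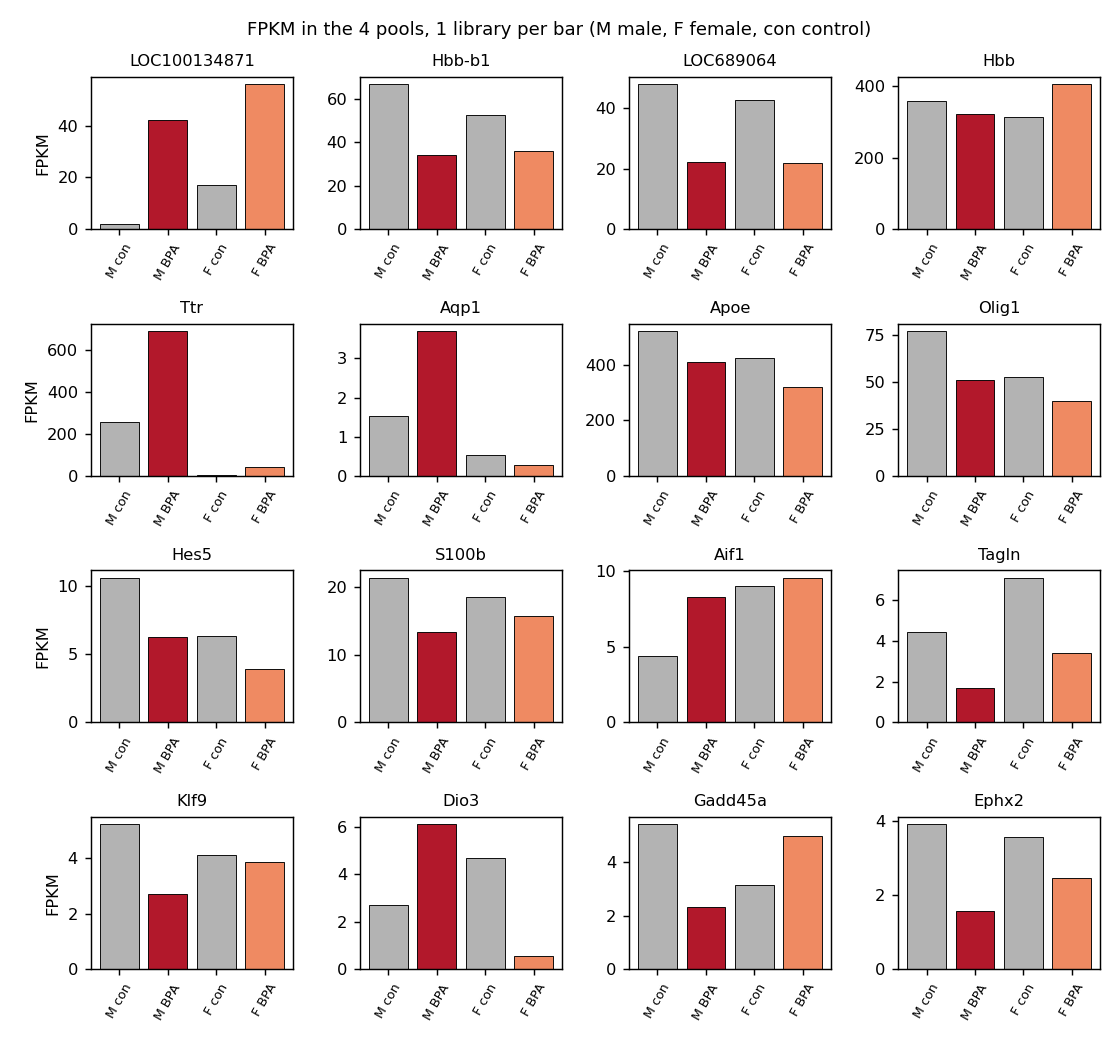
FPKM (y axes, each starting at 0) of 16 genes in the control and BPA pools of each sex, with 1 library per bar and no error bars. LOC100134871 is higher and Hbb-b1, LOC689064, Apoe, Olig1, Hes5, S100b, Tagln, Klf9 and Ephx2 are lower in the BPA pool of each sex, while Dio3 (2.70 to 6.10 FPKM in males, 4.68 to 0.57 FPKM in females) and Gadd45a have opposite orders in the sexes.

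Hormone genes were examined because BPA is known as an endocrine disruptor. None of 15 measured genes of sex steroid receptors and synthesis was past 0.5, where 3.46% of all genes were. Their median was -0.01. The membrane estrogen receptor Gper1 had the largest difference, at 1.3 FPKM in male control and 0.84 FPKM in male BPA (-0.32), with an interval of the ratio from 0.25 to 1.6. The nuclear receptors Esr1 (0.89 and 0.45 FPKM) and Esr2 (0.01 and 0.05 FPKM) and the aromatase Cyp19a1 (0.32 and 0.32 FPKM) were under the limit of 1 FPKM. The palindromic estrogen response element GGTCANNNTGACC, which is its own reverse complement, was found in the 250-base RefSeq promoter of 1 of 8873 genes with a promoter, Hist1h2af (0.0113%; 0.0239% of all RefSeq promoters), and in none of the 116 higher and 176 lower genes past 0.5 that had a promoter, which says only that this window does not hold these letters.

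Thyroid hormone genes contained some of the larger single differences around a median of -0.07. Dio3, the deiodinase that inactivates thyroid hormone, was at 2.7 FPKM in male control and 6.1 FPKM in male BPA (0.94, with a ratio of 2.26, interval 1.55 to 3.29), against 4.68 and 0.57 FPKM in the female pools. Klf9, a transcription factor induced by thyroid hormone and glucocorticoids, was at 5.22 and 2.72 FPKM (-0.74, with 4.12 and 3.86 in the female pools), so that male BPA was the lowest of the 4. In the glucocorticoid list, with a median of 0.01, Crh, the corticotropin releasing hormone, was at 1 and 2.61 FPKM (0.85, with 1.93 and 1.01 in the female pools), and among neuropeptides Grp was at 5.26 and 8.92 FPKM (0.66, with 7.29 and 6.28 in the female pools).

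Synaptic and channel lists contained few differences past 0.5. The count was 0 among 17 ionotropic glutamate receptor genes, 21 GABA receptor and chloride cotransport genes, 32 synaptic vesicle genes, 26 postsynaptic genes, 31 neurotrophin and memory genes and 46 voltage-gated channel genes, beside 3.46% of all genes. Their medians lay between -0.09 and -0.03. The NMDA receptor subunit Grin3a was at 20.5 and 15.0 FPKM in the male pools (-0.43, with 18.3 and 13.3 in the female pools), the GABA-A subunit Gabra4 at 8.75 and 11.9 FPKM (0.41), the vesicle protein Syn2 at 42.5 and 34.0 FPKM (-0.31, with 37.0 and 22.8 in the female pools) and the neurotrophin Ntf3 at 3.19 and 4.57 FPKM (0.41, with 7.53 and 3.89 in the female pools). For Ntf3 the interval of the ratio includes 1 (0.93 to 2.28). Metabotropic glutamate receptors were lower in 6 of 7 genes, where 51% of all genes were, with a median of -0.27. Grm4, a presynaptic receptor of that family, was at 4.12 and 2.62 FPKM (-0.50, with 2.53 and 2.06 in the female pools). Of 18 monoamine and acetylcholine receptor genes 2 were lower past 0.5, where 2.11% of all genes were. These were the adrenergic receptors Adra2c (11.9 and 7.52 FPKM, -0.60) and Adrb1 (2.11 and 1.19 FPKM, -0.51). Both came from a male control value above the other 3 pools, and the interval of the ratio for Adrb1 includes 1 (0.27 to 1.12).

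Guidance and patterning genes were split in direction. Of 37 axon guidance genes 19 were higher and 18 lower, with 1 higher past 0.5 (Efnb2, above) and 2 lower, where 1.35% and 2.11% of all genes were. Ntn1, the secreted guidance cue netrin-1, was at 3.41 FPKM in male control and 1.48 FPKM in male BPA (-0.83, with 1.51 and 2.93 in the female pools), and Efna5, an ephrin, at 4.84 and 3.09 FPKM (-0.51), with an interval of the ratio that includes 1. The median of the axon guidance genes was 0.02. Hey2, a Notch target like Hes5, was at 3.83 and 1.63 FPKM (-0.88, with 2.54 and 2.42 in the female pools), in a list of 47 Wnt, Notch, BMP and hedgehog genes with a median of 0.01 and 2 past 0.5, both lower. In the neurite cytoskeleton list Nefh, the heavy neurofilament chain of mature axons, was at 2.86 and 1.37 FPKM (-0.70), and it was the only one of 36 genes past 0.5. Gadd45a, a stress gene linked to DNA demethylation, was at 5.4 and 2.32 FPKM (-0.95, with 3.14 and 4.96 in the female pools). Dlk1, an imprinted Notch-like ligand, was at 2.07 and 3.79 FPKM (0.64, with 0.7 and 2.09 in the female pools).

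**Figure D5:**
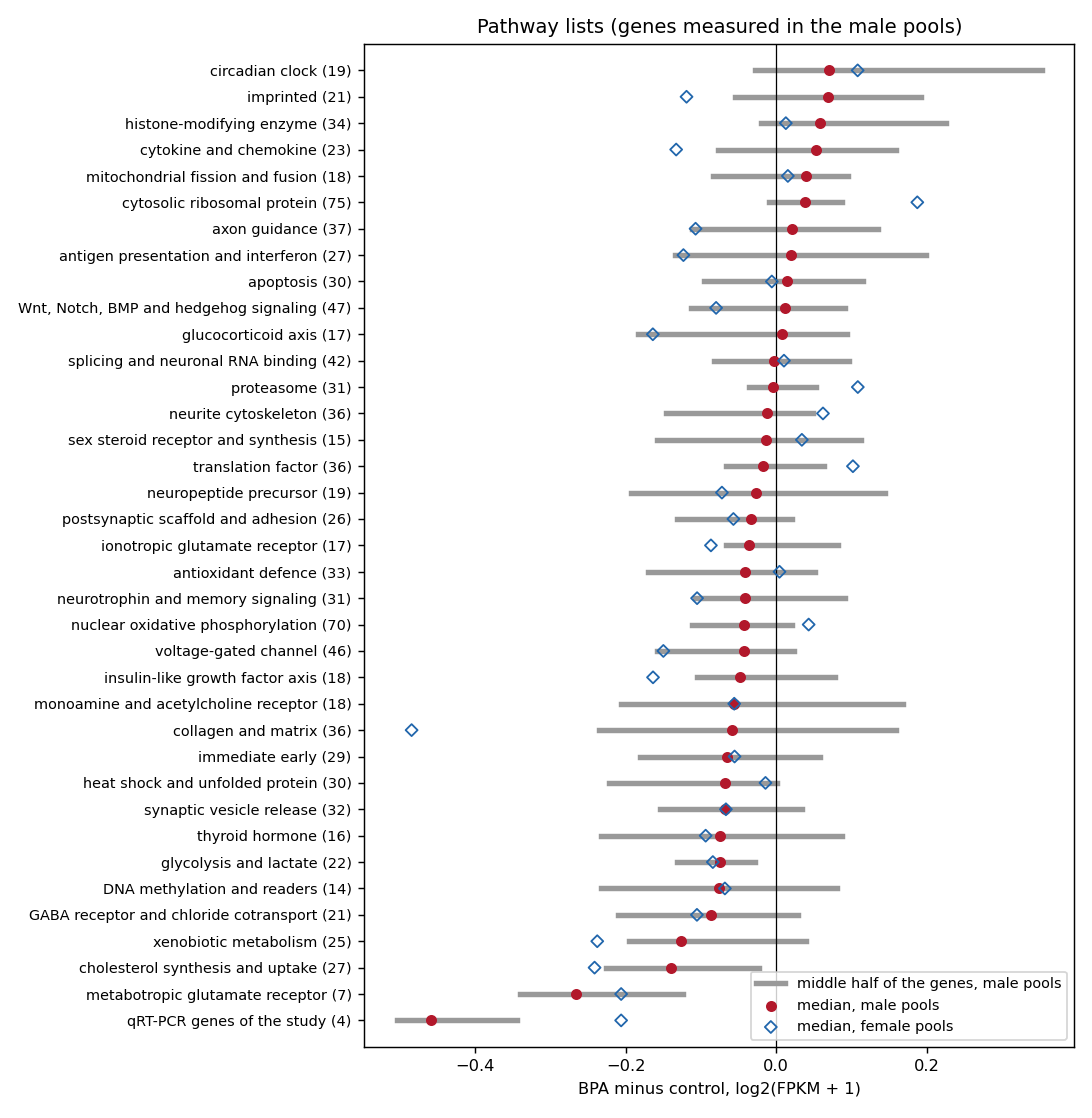
Medians of 37 lists of pathway genes on the log2(FPKM + 1) scale (x axis), as red dots for the male pools with grey bars between the quartiles of their genes, and as blue diamonds for the female pools, with the number of genes measured in the male pools in parentheses. The male medians lie between -0.46 and 0.07, and 33 of 37 are less than 0.1 from 0.

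Detoxification genes were mixed and cholesterol genes mostly lower. Of 25 measured genes of xenobiotic metabolism 10 were higher and 15 lower in male BPA, where 48.6% and 51% of all genes were. Past 0.5 were 2 in each direction, beside 1.35% of all genes higher and 2.11% lower. The list's median was -0.13. Of its 9 genes under 1 FPKM 6 were higher and 3 lower, so that the median over all rows was -0.037. Ephx2, the soluble epoxide hydrolase, was at 3.92 and 1.58 FPKM in the male pools (-0.93, with 3.59 and 2.48 in the female pools), and Ugt1a6, an enzyme of a family that conjugates phenols, at 2.07 and 1.07 FPKM (-0.57, with 0.92 and 0.75 in the female pools). The glutathione transferases Gstm2 (1.92 and 5.04 FPKM, 1.05, with 3.09 and 1.74 in the female pools) and Mgst1 (0.78 and 1.68 FPKM, 0.59, with 1.36 and 0.56 in the female pools) were higher in male BPA. For Mgst1 the interval of the ratio includes 1 (0.83 to 6.24). Cholesterol synthesis and uptake genes were lower in male BPA in 22 of 27, where 51% of all genes were, with a median of -0.14. In female BPA 24 of 27 were lower, where 57.2% of all genes were, with a median of -0.24. Tm7sf2, a sterol reductase, was at 13.4 and 8.85 FPKM (-0.55, with 8.92 and 8.99 in the female pools) and Scd, the stearoyl-CoA desaturase, at 8.38 and 5.49 FPKM (-0.53, with 8.36 and 6.15 in the female pools), while Hmgcs1, an early enzyme of the pathway named after its values were seen, was at 234 and 211 FPKM.

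Interferon and antigen presentation genes were scattered about a median of 0.02. Irf9 (0.72 and 1.81 FPKM, 0.71, with 3.02 and 2.81 in the female pools), a subunit of the interferon-activated transcription factor, and Ifitm1 (0.75 and 1.7 FPKM, 0.63) were higher in male BPA. The interval of the ratio for Ifitm1 includes 1 (0.63 to 10.1). Tapbp, which loads peptides onto MHC class I, was at 2.3 and 0.89 FPKM (-0.80, with 0.4 and 2.12 in the female pools), and the class I gene RT1-A3 at 2.6 and 1.04 FPKM (-0.82), although reads of class I genes can be shared among near-identical copies. B2m, the constant chain of class I and the most abundant of the list, was at 40.4 and 41.0 FPKM. The cytokine list had none of 23 past 0.5. With 3.46% of all genes past 0.5, a list of that size is not set apart by holding none. The list's largest difference was that of Tgfb1 (3.82 and 2.48 FPKM, -0.47), with an interval of the ratio that includes 1 (0.40 to 1.04).

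Clock genes had the highest median among pathway lists at the main setting, 0.0699, just above imprinted genes at 0.0687. After quantile normalization histone-modifying enzymes were higher, at 0.0735 against 0.0638 for clock genes. In the clock list 13 of 19 genes were higher in male BPA, where 48.6% of all genes were. Cry1, a repressor of the clock, was at 5.46 and 8.79 FPKM (0.60, with a ratio of 1.61, interval 1.30 to 1.98) and at 4.35 and 7.37 FPKM in the female pools, higher with BPA in each sex. Per2, another repressor, named after its values were seen, was at 4.44 and 6.73 FPKM (0.51, with 3.65 and 5.21 in the female pools). Rorb was at 0.78 and 1.72 FPKM (0.61) and Ciart at 2.75 and 1.51 FPKM (-0.58), the latter with an interval of the ratio that includes 1 (0.290 to 1.001). The activator Arntl, also named after its values were seen, was at 9.47 and 9.99 FPKM. The time of day of each dissection is not given in the sources used here.

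Several lists of core cell functions had no gene past 0.5, as did the synaptic lists above. Shares past 0.5 over all genes were 3.46%, and 0.503% at 20 to 100 FPKM and 0.147% over 100 FPKM. None of 70 nuclear genes of oxidative phosphorylation was past 0.5 (median -0.04), and the same held for 36 translation factors (-0.02), 31 proteasome genes (-0.00), 22 glycolysis genes (-0.07), 33 antioxidant genes (-0.04), 34 histone-modifying enzymes (0.06), 42 splicing genes (-0.00) and 29 immediate early genes (-0.06). Cytosolic ribosomal protein genes were higher in 50 of 75, where 48.6% of all genes were. The list's median was 0.04, and 3 were past 0.5 (1 higher, 2 lower). Rps28 was the lowest of them, at 26.2 and 13.2 FPKM (-0.94, with 13.3 and 13.3 in the female pools), so that male control stood apart from the 3 other pools in this short row. In the heat shock list, with a median of -0.07, 22 of 30 were lower, where 51% of all genes were. Past 0.5 was 1 in each direction, beside 1.35% of all genes higher and 2.11% lower. The small chaperone Hspb1 was at 3.16 and 0.97 FPKM (-1.08, with 1.25 and 0.69 in the female pools). The stress factor Ddit3 was at 4.55 and 7.76 FPKM (0.66, with 6.77 and 6.94 in the female pools).

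Of the 13 genes that the study chose for qRT-PCR, 4 had a gene ID row, and since that choice was made on these samples the list is no independent evidence of its direction. By qRT-PCR the paper reported Itga4 and Eif3h as significantly increased in BPA males and Grm4 as significantly reduced in BPA females. In the pools, all of the measured genes were lower in male BPA, so Itga4 and Eif3h went against the qRT-PCR result. Why these results differ was not tested. Itga4, an integrin, was at 2.94 and 1.75 FPKM (-0.52, with 2.70 and 1.92 in the female pools), Grm4 as given above, Abca7, a lipid transporter, at 1.46 and 0.84 FPKM (-0.42, with 0.91 and 0.58 in the female pools) and Eif3h, a translation initiation subunit, at 143 and 131 FPKM (-0.12, with 144 and 159 in the female pools).

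The female pools, which share no library with the male ones, give a second set of values for the same genes. Of the 229 genes lower by more than 0.5 in male BPA, 228 were listed for females, and 174 of these (76.3%) were also lower in female BPA, 46 of them by more than 0.5, as were 4.99% of all genes of the female comparison. Of the 146 higher genes 145 were listed, and 67 (46.2%) were also higher in female BPA, 11 by more than 0.5, while 13 were lower in female BPA by more than 0.5. Among the lower genes 10 were higher in female BPA by more than 0.5, beside 1.16% of all genes. Over all genes of the female comparison 57.2% were lower and 42.6% higher in female BPA. No test was made of the difference between the sexes.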

How the data were processed

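RNA-seq libraries of 4 pools of hippocampus were made by the study, 1 for each sex and treatment. The authors deposited FPKM values per gene and library, to 2 decimals with 0.01 as the lowest value, together with new gene models that carry only a best protein match. The submitters' processing notes name HISAT 0.1.6, Bowtie2 2.2.5, RSEM and the build rn6. The roles of these tools, the annotation and the strandedness of counting were not given in the sources used here.

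The male files were joined on gene ID, new gene models were left out, and genes with a mean under 1 FPKM were not compared. Differences are male BPA minus male control of log2(FPKM + 1), a scale that understates the change of low genes. No test was possible with 1 library per group. Fragment numbers were recovered as the depth and length offset at which low values of genes of 300 to 1500 bases became whole. At that setting 94.7% to 98.5% of low values were whole to within 0.15 (30% for an even spread), and depths are approximate because depth and offset trade off. Exact 95% intervals of the ratio from these fragments cover counting error only, and pools of 3 pups give no spread between animals. The recovery of depth, intervals and differences was tested on simulated data.

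Genes were named by a rule: the 10 largest differences each way, the 8 largest each way at a mean of at least 20 FPKM, in each list the 2 largest each way past 0.5 (or else the single largest), the 3 most abundant genes of each cell type list, and the qRT-PCR genes of the study. A few genes that the rule names are not reported here. There were 51 lists with 1493 genes, 1231 of them measured, and 82 genes stood in at least 2 lists. The genes compared, the lists and the rule were chosen with earlier results of these data known. Of the compared gene IDs, 10793 were found in the RefSeq table of GRCr8, 10135 with the same symbol. That table was used for names only, and the promoters are those of its assembly.

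The alternatives were a pseudocount of 0.1, no limit on the mean or 5 FPKM, quantile normalization, median scaling, new gene models added by protein match, and the female control library as reference. Python 3.11.15 was used with numpy 2.4.6, pandas 2.3.3, scipy 1.17.1, matplotlib 3.10.9 and biopython 1.88.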

Additional observations from a re-analysis of the deposited data

Results flagged for a closer look

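Among the named genes, the following differed by more than 0.5 on the log2(FPKM + 1) scale in opposite directions in the male and female pools, with 1 library per group, and the difference between the sexes was not tested. Higher in male BPA and lower in female BPA were Hmgb2l1 (1.94 in males and -0.54 in females), Rn7sl1 (1.62 and -0.71), RGD1562890 (1.13 and -1.01), Gstm2 (1.05 and -0.58), Dio3 (0.94 and -1.86), Crh (0.85 and -0.54), Kpna2 (0.76 and -1.28) and Mgst1 (0.59 and -0.60). Lower in male BPA and higher in female BPA were LOC500077 (-1.81 and 0.86), Gadd45a (-0.95 and 0.53), Ntn1 (-0.83 and 0.65) and Tapbp (-0.80 and 1.16). For RGD1562890 and Mgst1 the counting interval of the male ratio includes 1. Over all compared genes, 13 were higher by more than 0.5 in male BPA and lower by more than 0.5 in female BPA, and 10 showed the reverse.

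Medians of 3 cell type lists also lay on opposite sides of 0 in the sexes by at least 0.1. These were the choroid plexus list (0.27 in males and -0.24 in females), the microglia list (0.15 and -0.18) and the red blood cell list (-0.15 and 0.15). This contrast between the sexes was not tested either.

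New gene models, which take no part in the comparisons, held values that were listed in only 1 of the male pools. Of 3332 such models in the male files, 82 were at the lowest value of 0.01 FPKM in male control and at 1 FPKM or more in male BPA, and 93 showed the reverse. Among the rows with a gene ID the same was seen for 7 and 3.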

How the results depend on the processing

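No paired analysis was possible because each group has 1 library, and for the same reason no replicate could be left out. The 31 genes past 1 (14 higher, 17 lower) and the 146 higher and 229 lower genes past 0.5 became 102 (34, 68), 302 and 414 with a pseudocount of 0.1, and 6 (4, 2), 54 and 70 among the genes with a mean of at least 5 FPKM. Against the female control library, which differs in sex as well, they were 106 (42, 64), 320 and 409. Without a filter 234 genes were higher by more than 0.5, and the other counts stayed within 1.5 times. Quantile normalization, median scaling and added new gene models kept each of these counts within 1.5 times. The share of higher genes among those past 0.5 was 38.9%, and 38.5% to 44.7% under the alternatives. All list medians kept their direction where they were at least 0.1 from 0, except against the female control library, where microglia was -0.10 and red blood cell 0.058. Against that library the named genes Adra2c (0.29), Aif1 (-0.11), Clk1 (-0.036), Grm4 (0.036), Hmgb2l1 (-1.64), Irf9 (-0.52), Luc7l3 (-0.037), Ppp1r14b (-1.02) and Zic1 (0.17) also changed direction, and with new gene models added Ftl1 (-0.087), Kpna2 (-0.085) and Rpl36a (0.12) did. The cause was not tested. With the direction kept, values of named genes past 0.5 moved beyond their counting interval for 14 of 80 with a pseudocount of 0.1, 3 of 80 with new gene models added and 28 of 73 against the female control library, and for 0 of 80 under either scaling. The filters on the mean leave the value of a single gene as it is. Depth limits the lowest class most, since a gene at 1 to 2 FPKM had a median of 28.8 fragments in male control.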

Other observations

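Some genes under the limit of 1 FPKM had large ratios with at least 20 fragments in 1 male pool. Robo4, an endothelial guidance receptor, was at 0.92 FPKM in male control and 0.02 FPKM in male BPA (female pools 0.65 and 0.98), and the protocadherin Pcdhac1 at 0.72 and 0.08 FPKM (female pools 0.42 and 0.27). The microglial marker Tmem119 was at 1.39 and 0.43 FPKM in the male pools and at 1.15 and 0.43 FPKM in the female pools, lower with BPA in each, while Aif1 was higher in male BPA. Sirt7, a nuclear deacylase, was at 0.01 and 1.52 FPKM, Uckl1, a uridine kinase, at 0.01 and 1.32 FPKM, and neither is listed in the female files. Mpp4 was at 0.10 and 0.63 FPKM in the male pools and at 0.44 and 0.10 FPKM in the female pools. These genes were chosen by the size of their ratio.

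The most abundant genes were nearly level between the male pools. Tuba1a, the tubulin of growing neurites, was at 7463 FPKM in male control and 7911 FPKM in male BPA, a ratio of 1.06 (counting interval 1.05 to 1.07). Tubb2b was at 3406 and 3741 FPKM (ratio 1.10) and Actb, cytoplasmic actin, at 2158 and 1918 FPKM (ratio 0.889).

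Among the 228 genes lower by more than 0.5 in male BPA with values in all pools, male control and male BPA lay on opposite sides of the range of the female pools for 109. For 42 only male control was outside that range and for 42 only male BPA was. Among 145 such higher genes the numbers were 75, 17 and 24. In shares these were 47.8%, 18.4% and 18.4% of the lower and 51.7%, 11.7% and 16.6% of the higher genes. For all 10838 genes with values in all pools the shares were 10.5%, 15.9% and 13.7%. The lower and higher genes were chosen by the size of the male difference, which by itself can raise the first share.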
